A study of Mus musculus with 8 samples.

Results

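The 10 genes described here encode enzymes that cut the extracellular matrix and the inhibitors that hold them back: the matrix metalloproteinases Mmp2, Mmp9, Mmp14 and Mmp15, the aggrecanase-type proteases Adamts1 and Adamts5, the tissue inhibitors of metalloproteinases Timp1, Timp2 and Timp3, and the heparan sulfate cleaving enzyme Hpse. They were chosen by symbol, as genes whose products act on Bruch's membrane (the matrix sheet under the retinal pigment epithelium, RPE) and on the sclera, and all 10 were found among the 31053 gene identifiers of the count files. QuantSeq, which sequences the 3′ end of mRNA, was run on RPE eyecups, the back of the eye with the RPE left in place, from C57/Bl6 mice at postnatal day 11. The comparison addresses what loss of the ciliary gene Bbs8, a subunit of the BBSome trafficking complex, does to gene expression in this tissue. Of the 8 libraries, 4 came from wild-type littermates, written Bbs8+/+, and 4 from mice homozygous for the knockout, written Bbs8-/-, and each held 1636725 to 2884983 gene counts. The deletion was not limited to the RPE, so every cell type of the eyecup carried it, and neither group received a treatment.

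Matrix metalloproteinases are made as inactive precursors that must be cut before they act. Mmp14 sits in the cell membrane and, with Timp2 as a bridge, activates the secreted gelatinase Mmp2, so that Timp2 is both an inhibitor and a part of the activating complex. Timp3 stays bound to the matrix and is a known component of Bruch's membrane, where its mutation causes Sorsby fundus dystrophy. Adamts proteases cut the large proteoglycans aggrecan and versican, and heparanase cuts the heparan sulfate chains that hang from basement membrane and cell surface proteoglycans.

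Mmp14, Adamts1 and Hpse were lower in Bbs8-/- eyecups, Adamts5 was higher, and no Timp gene passed the test. Of the 10 genes, 9 reached the minimum of 1 CPM (counts scaled to the size of the library) in at least 4 libraries and were tested. Each of the 9 exceeded 1 CPM in all 8 libraries. At a false discovery rate (FDR) of 0.05 over all 13813 tested genes, 3 of the 9 were down-regulated in Bbs8-/- (Mmp14, Adamts1 and Hpse), 1 was up-regulated (Adamts5) and 5 did not pass. That is 44.4% of the tested members, against 2.24% of all tested genes called in either direction, 1.14% called lower and 1.1% called higher. The median log2 fold change was -0.02 over the 9 members and -0.0041 over all tested genes. For 5 of the 9 (55.6%) the 4 knockout libraries lay entirely on one side of the 4 wild-type libraries, against 7.38% of all tested genes. These shares are descriptions, since the members were not drawn at random and results of these data were known when they were chosen. In bulk tissue, fewer cells of a type and less RNA per cell cannot be told apart.

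**Figure D1:**
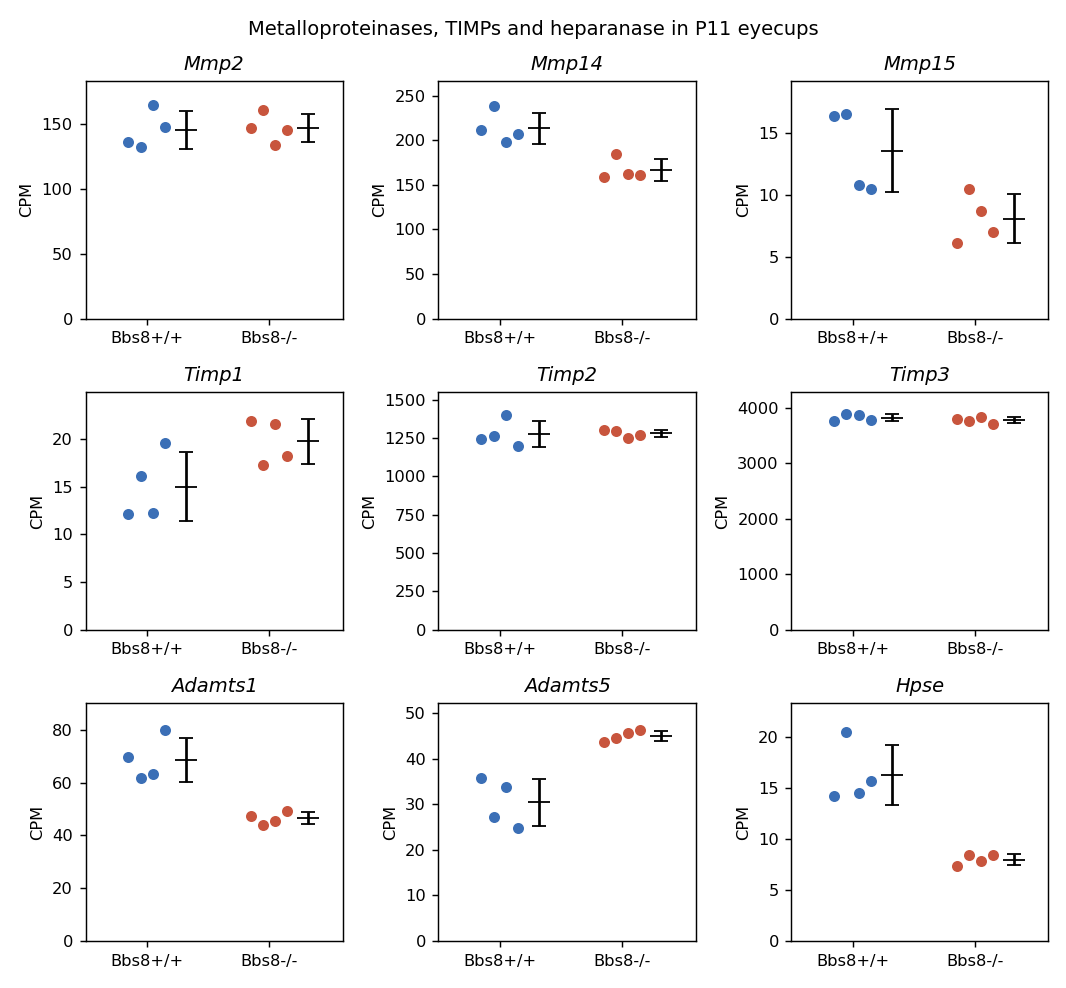
Level of each tested member in CPM (vertical axes, starting at 0) in the 4 Bbs8+/+ libraries (blue) and the 4 Bbs8-/- libraries (red), with the mean and SD in black and without Mmp9, which had at most 3 counts in any library. Mmp14, Adamts1 and Hpse lie lower and Adamts5 higher in every Bbs8-/- library, while the Mmp2, Timp2 and Timp3 points of the genotypes intermingle.

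The sequence just upstream of the 3 genes that were lower together is shown so that it can be set beside their values. Each line holds the 250 bases before the RefSeq start (GRCm38.p6), 5′ to 3′ on the strand of the gene, with matches to the GC box in capitals: Mmp14 at chr14:54431348-54431597 (forward strand), Adamts1 at chr16:85803114-85803363 (reverse strand) and Hpse at chr5:100719717-100719966 (reverse strand).
Mmp14: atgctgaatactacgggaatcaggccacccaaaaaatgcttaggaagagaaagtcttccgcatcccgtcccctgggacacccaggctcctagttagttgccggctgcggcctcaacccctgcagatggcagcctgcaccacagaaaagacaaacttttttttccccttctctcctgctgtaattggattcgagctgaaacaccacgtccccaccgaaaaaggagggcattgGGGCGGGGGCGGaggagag
Adamts1: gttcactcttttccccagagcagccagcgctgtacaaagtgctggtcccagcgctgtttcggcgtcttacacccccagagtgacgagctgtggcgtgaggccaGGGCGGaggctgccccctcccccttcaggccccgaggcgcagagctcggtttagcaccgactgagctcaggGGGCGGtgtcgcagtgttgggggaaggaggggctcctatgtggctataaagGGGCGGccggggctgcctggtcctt
Hpse: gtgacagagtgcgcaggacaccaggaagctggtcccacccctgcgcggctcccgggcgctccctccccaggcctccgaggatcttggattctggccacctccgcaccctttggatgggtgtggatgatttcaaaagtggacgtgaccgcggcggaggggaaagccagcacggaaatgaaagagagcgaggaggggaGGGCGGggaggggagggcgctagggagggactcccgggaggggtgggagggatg
The GC box was searched as GGGCGG on both strands, so CCGCCC also counts. The Mmp14 window held 2 matches side by side, the Adamts1 window 3 and the Hpse window 1. Windows were found for 7 of the 10 members (not for Mmp2, Mmp9 and Adamts5), and those of Mmp15, Timp1, Timp2 and Timp3, none of which passed the test, held 1 match each. Over all 32851 promoters of the same length, 32.7% held at least 1. None of the 7 windows held the AP-1 motif TGANTCA, the E-box CACGTG or the TCF/LEF motif CTTTGAT, which were found on either strand in 6.75%, 6.02% and 3.21% of all promoters. The GC content of the 7 windows ranged from 54.4% to 68%, against a median of 52.4%.

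Mmp14, the membrane-bound collagenase and activator of Mmp2, lies on chromosome 14 from 54431612 to 54445364 (mm10, forward strand). It stood at 211.0, 237.9, 197.9 and 207.0 CPM in wild-type replicates 1 to 4 and at 158.5, 184.6, 161.7 and 160.9 CPM in knockout replicates 1 to 4. All 4 knockout libraries were below the lowest wild-type library, and knockout replicate 2 was the nearest to it. The means were 213.4 ± 17.2 and 166.4 ± 12.2 CPM (SD, n = 4 per genotype), so the knockout level was 0.779 of the wild-type level. On the log2 scale Mmp14 changed by -0.36 (SE 0.0812, 95% interval -0.52 to -0.20, edgeR quasi-likelihood FDR 0.00209). The call held in 15 of 16 alternative fits, and was lost without Bbs8+/+ replicate 2, where the log2 fold change was -0.30 (FDR 0.052).

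Mmp2, the gelatinase that Mmp14 activates, lies on chromosome 8 from 92827291 to 92853420 (forward strand). Its level was 136.4, 132.3, 165.1 and 147.9 CPM in the wild-type libraries and 147.6, 161.1, 134.1 and 145.9 CPM in the knockout libraries, and the ranges overlapped almost fully. The log2 fold change was 0.02 with a 95% interval of -0.16 to 0.20 (FDR 0.965), so a change of the size seen for Mmp14 lies outside the interval. Mmp9, the second gelatinase (chromosome 2, 164940780 to 164955850, forward strand), had 0, 2, 0 and 2 counts in the wild-type libraries and 0, 0, 3 and 0 in the knockout libraries. All of these were at or under the floor of 3 counts, which corresponds to 1.04 to 1.83 CPM by library, and no difference in Mmp9 was detectable at this depth.

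Mmp15, a membrane-bound relative of Mmp14, lies on chromosome 8 from 95352268 to 95375080 (forward strand). It was measured at 16.4, 16.5, 10.8 and 10.5 CPM in Bbs8+/+ and at 6.07, 10.5, 8.73 and 7.02 CPM in Bbs8-/-. The lowest wild-type and the highest knockout library both rounded to 10.5 CPM, so the ranges met without crossing. These values rest on 23 to 42 and on 10 to 20 counts per library. The 95% interval of its log2 fold change, -0.74 (SE 0.301), ran from -1.33 to -0.14, but Mmp15 did not pass after adjustment over all genes (edgeR FDR 0.234).

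Adamts1 and Adamts5, both proteases of aggrecan and versican, are neighbours on the reverse strand of chromosome 16, from 85793827 to 85803113 and from 85856173 to 85901828, with 53.1 kb between them. They moved in opposite directions. Adamts1 stood at 69.9, 61.8, 63.2 and 80.1 CPM in Bbs8+/+ and at 47.4, 43.9, 45.5 and 49.1 CPM in Bbs8-/-. Every knockout library was below every wild-type library, and the wild-type spread was the wider, with replicate 4 the highest. Mean Adamts1 levels were 68.7 ± 8.34 and 46.5 ± 2.25 CPM (SD, n = 4 per genotype), or 0.674 of the wild-type level, and the difference passed the test (log2 fold change -0.57, SE 0.134, edgeR FDR 0.00412). This call held in 15 of 16 alternative fits and was lost without Bbs8+/+ replicate 4, at -0.48 (FDR 0.0581). The summed level of 10 fibroblast and sclera markers, none of them at 0, moved the same way as Mmp14 and Adamts1. It was 35132.7 to 36920.4 CPM in wild-type and 27712.1 to 28895.0 CPM in knockout libraries, lower through Col1a1, Col1a2 and Col3a1, the 3 that passed. Of the 10, 7 had a log2 fold change below 0. Above 0 were Dcn (0.09, without overlap between the genotypes), Lum (0.12) and Fmod (0.02), none of which passed. The part of this sum in the values of Mmp14 and Adamts1 was not tested.

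For Adamts5 the wild-type libraries gave 35.8, 27.2, 33.7 and 24.8 CPM and the knockout libraries 43.7, 44.5, 45.5 and 46.3 CPM. The knockout libraries were all higher and lay close together, while the wild-type libraries were spread more widely. Adamts5 rose from a mean of 30.4 ± 5.22 to one of 45.0 ± 1.13 CPM, to 1.49 times the wild-type level (log2 fold change 0.58, SE 0.164, 95% interval 0.25 to 0.90, edgeR FDR 0.0316). This call was less firm than those of Mmp14 and Adamts1. It was lost in 7 of 16 alternative fits: without Bbs8+/+ replicate 2 (FDR 0.114) or replicate 4 (0.153), without any 1 of the Bbs8-/- replicates 1 to 4 (0.0576, 0.06, 0.0838 and 0.096), and after thinning all libraries to the smallest total (0.206, log2 fold change 0.46).

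Because counts of both genes come from the same library, their ratio does not depend on how libraries are scaled. Adamts5 had 0.31 to 0.533 counts per Adamts1 count in the wild-type libraries and 0.923 to 1.01 in the knockout libraries. On the log2 scale the ratio was -0.97, -1.19, -0.91 and -1.69 in wild-type replicates 1 to 4 and -0.12, 0.02, 0.00 and -0.09 in knockout replicates 1 to 4. The ratios did not overlap, and the group means differed by 1.14 on the log2 scale. In the same way the log2 ratio of Mmp14 to Mmp2 averaged 0.56 ± 0.246 in Bbs8+/+ and 0.18 ± 0.0724 in Bbs8-/-. For 1 wild-type library, replicate 3 at 0.26, it lay inside the knockout range. The log2 ratio of Mmp2 to Timp2 was -3.13 ± 0.106 and -3.12 ± 0.0882, with overlapping libraries (SD, n = 4 each). No test was run on the ratios, which restate the genes already tested.

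**Figure D2:**
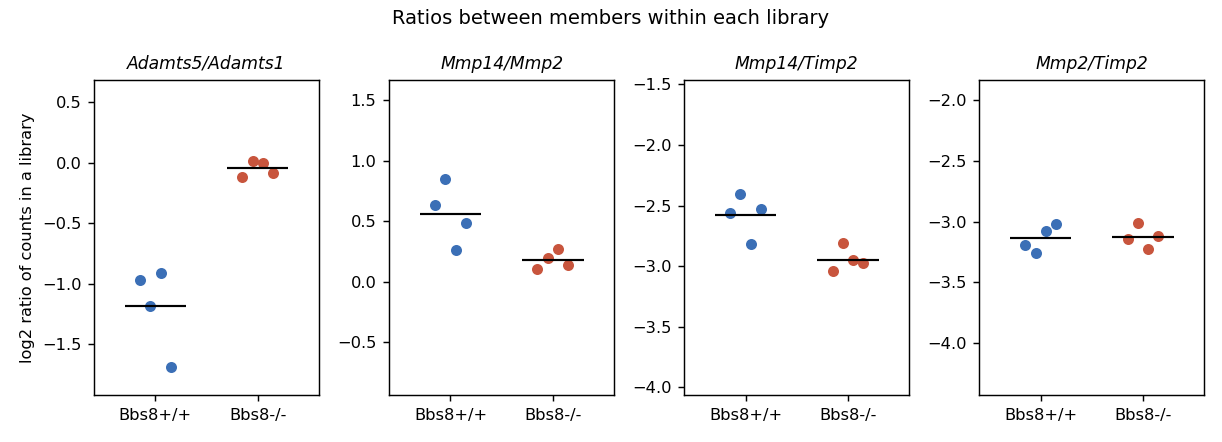
Log2 ratio of the counts of a pair of members within each library (vertical axes, equal span in every panel) for the 4 Bbs8+/+ (blue) and the 4 Bbs8-/- libraries (red), with the group mean as a black line. Adamts5/Adamts1 separates the genotypes at -1.69 to -0.91 against -0.12 to 0.02, Mmp14/Mmp2 and Mmp14/Timp2 overlap in part, and Mmp2/Timp2 shows no visible shift.

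Hpse, heparanase, the enzyme that cuts heparan sulfate chains, lies on the reverse strand of chromosome 5 from 100679484 to 100719716. Its level was 14.2, 20.5, 14.5 and 15.7 CPM in Bbs8+/+ and 7.29, 8.37, 7.81 and 8.42 CPM in Bbs8-/-. The knockout values lay within a narrow band below all wild-type values, and wild-type replicate 2 was the highest library. Heparanase averaged 16.2 ± 2.9 CPM in wild-type and 7.97 ± 0.532 CPM in knockout eyecups (SD, n = 4 per genotype), or 0.493 of the wild-type level. At -1.02 (SE 0.285, 95% interval -1.59 to -0.46, edgeR FDR 0.0276) its log2 fold change was the largest in size among the 9 tested members. It rests on few reads, 31 to 52 per wild-type library and 12 to 18 per knockout library. Of 15 alternative fits with an adjusted value, 6 lost the call: without Bbs8+/+ replicate 2 (FDR 0.169), without any 1 of the Bbs8-/- replicates 1 to 4 (0.0841, 0.055, 0.079 and 0.0604) and after thinning (0.106), while the log2 fold change stayed between -1.08 and -0.89. DESeq2 gave an unadjusted p of 0.000469 and no adjusted value for Hpse.

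**Figure D3:**
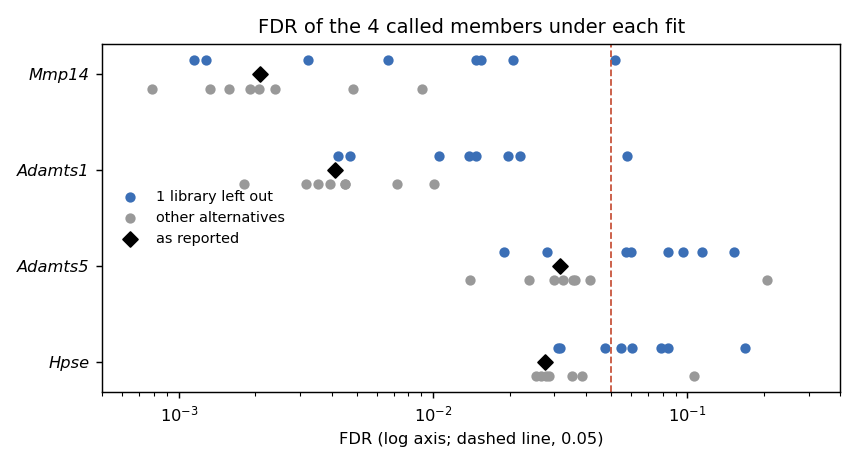
FDR of the 4 called members (horizontal log axis, dashed line at 0.05) as reported (black diamonds), with 1 library left out (blue) and under the other alternatives (grey). Mmp14 and Adamts1 cross the line once each, at 0.052 and 0.0581, while Adamts5 and Hpse cross it in several fits, up to 0.206 and 0.169.

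Timp1, a secreted inhibitor that acts weakly on membrane-bound metalloproteinases, lies on chromosome X from 20870166 to 20874735 (forward strand). It measured 12.1, 16.1, 12.2 and 19.6 CPM in Bbs8+/+ and 21.9, 17.3, 21.6 and 18.2 CPM in Bbs8-/-. Only 2 of the 4 knockout libraries were above the highest wild-type library. Timp1 did not pass the test (log2 fold change 0.38, SE 0.236, 95% interval -0.09 to 0.85, edgeR FDR 0.528). Libraries differed by genotype in sex-linked counts. Y-linked genes made up 7.68% to 8.78% of the sum of Y-linked and Xist counts in Bbs8+/+ and 14.9% to 17.3% in Bbs8-/-. Both kinds were detected in every library. This difference lies along the same genotype contrast as all the members, the called Mmp14, Adamts1, Adamts5 and Hpse among them. Its part in the values of Timp1 or of any other member was not tested.

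Timp2, the bridge between Mmp14 and Mmp2, lies on chromosome 11 from 118301069 to 118355740 (reverse strand). It stood at 1242.4, 1262.1, 1396.8 and 1196.5 CPM in Bbs8+/+ and at 1304.2, 1296.4, 1251.7 and 1266.5 CPM in Bbs8-/-, with the knockout libraries inside the wild-type range. The log2 fold change was 0.01 with an interval of -0.09 to 0.10 (FDR 0.977). Timp3, the matrix-bound inhibitor, lies on chromosome 10 from 86300372 to 86349506 (forward strand), and had the most reads of the 10 genes. It measured 3770.8, 3887.2, 3865.0 and 3786.2 CPM in Bbs8+/+ and 3800.2, 3774.2, 3837.7 and 3714.9 CPM in Bbs8-/-, and the ranges overlapped. With 6256 to 10829 counts per library its interval was narrow, at -0.09 to 0.05 around a log2 fold change of -0.02 (FDR 0.903). A change in Timp2 or Timp3 as large as that of Mmp14 in either direction lies outside these intervals.

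Timp3 overlaps the gene Syn3 and shares 1733 exon bases with it, on opposite strands and reaching the 3′ end of Timp3, where QuantSeq reads fall. The strand setting of the counting is not given in the sources used here, so reads in that stretch cannot be assigned by strand. Syn3 itself averaged 1.41 ± 1.3 CPM in wild-type and 1.43 ± 1.13 CPM in knockout libraries. Timp1 lies in Syn1 and Timp2 overlaps Cep295nl with no shared exon bases, and no other overlapping gene was found for the members. A 3′ tag count depends on how well each 3′ end is captured, so no order of abundance between the genes is read from these values.

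**Figure D4:**
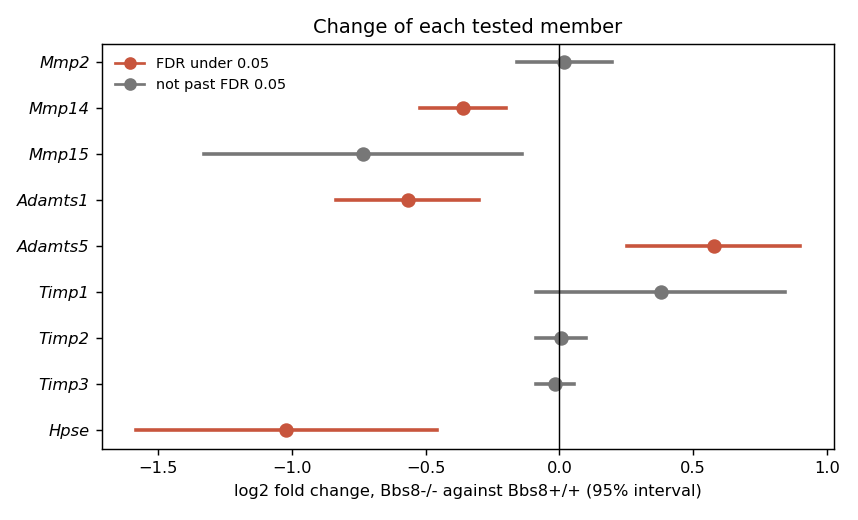
Log2 fold change of each tested member in Bbs8-/- against Bbs8+/+ with its 95% interval (horizontal axis), red where the edgeR FDR was under 0.05. Mmp14, Adamts1 and Hpse lie left of 0 and Adamts5 right of it, the Timp2 and Timp3 intervals are the narrowest and span 0, and Mmp15 lies left of 0 without passing the adjusted threshold.

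The profile of each called member over the 8 libraries was set beside those of 9033 tested genes with a mean of at least 10 CPM, as the root mean square difference of log2(CPM + 1) after centring each gene. Nearest to Mmp14 were mt-Cytb (0.0618), Extl3 (0.0656) and Slc38a1 (0.0718), where the median over all candidates was 0.289. Nearest to Adamts1 were Col1a2 (0.0779), a fibrillar collagen chain, Thap2 (0.0799) and Dennd5a (0.0807), with a median of 0.361. Pgd (0.096), Tuba4a (0.1) and Cd320 (0.101) were nearest to Adamts5, with a median of 0.382. For Hpse, Zkscan3 (0.196) and Tns2 (0.196) were among the 3 nearest, at larger differences than for the other called members, with a median of 0.53. All of these profiles share the same 8 libraries, their depth and the genotype contrast.

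The wider matrix turnover system was followed through 8 further lists with 107 genes, of which 82 were tested. Of these, 5 (6.1%) passed FDR 0.05, 1 higher and 4 lower, against 2.24% of all tested genes. Below 0 were 50 of the 82 log2 fold changes, against 50.5% of all tested genes. The median was -0.08, against -0.0041 over all tested genes. Among the other metalloproteinases 7 of 18 were tested and none passed, with a median of -0.03. The one with the most counts was Mmp16, a membrane-bound member, at -0.03 (FDR 0.974), and the smallest p was that of Mmp23, at 0.43 (FDR 0.273), or 0.65 without Bbs8+/+ replicate 3 (FDR 0.0545). Of the other inhibitors 4 of 6 were tested and none passed: Sfrp1, a secreted Wnt antagonist that also inhibits Adam10, was at 0.04 (FDR 0.842), and Timp4, with at most 6 counts in any library, at 1.41 (FDR 0.532), or 3.30 without Bbs8+/+ replicate 4 (FDR 0.188).

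None of the 17 tested genes among the 22 other Adamts and Adamts-like genes passed. Of these 17, 14 were below 0, against 50.5% of all tested genes, and the median was -0.14. Adamts2, which removes the end peptide of fibrillar procollagens, came nearest. It stood at 134.2, 120.1, 124.9 and 140.2 CPM in Bbs8+/+ and at 111.2, 93.6, 96.9 and 114.1 CPM in Bbs8-/-. The ranges did not overlap, but the log2 fold change of -0.32 (SE 0.0977) missed the threshold (edgeR FDR 0.0526). Over the alternatives its FDR ran from 0.0309 to 0.195, and Adamts2 passed with total counts only (0.0435), filterByExpr (0.0484), DESeq2 (0.0309) and without Bbs8-/- replicate 4 (0.0418). In the list for metalloproteinase activation and uptake 13 of 15 were tested and none passed, including Bsg (basigin, an inducer of metalloproteinases, 0.01, FDR 0.954) and Cav1 (caveolin, -0.36, FDR 0.328).

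Beside heparanase, 1 of 10 tested heparan sulfate turnover genes passed. Sulf2, which removes sulfate groups from heparan sulfate outside the cell, stood at 39.3, 42.9, 32.3 and 39.5 CPM in Bbs8+/+ and at 18.8, 18.8, 33.1 and 23.9 CPM in Bbs8-/-, where replicate 3 reached the wild-type range. It changed by -0.69 on the log2 scale (SE 0.182, edgeR FDR 0.0159), and the call was lost without Bbs8+/+ replicate 2, Bbs8-/- replicate 1 or Bbs8-/- replicate 2, with FDR up to 0.103. Its close relative Sulf1 was at 0.05 (FDR 0.844). Among 11 tested heparan sulfate proteoglycans Sdc3, a syndecan, was the only one called, at 53.1, 39.4, 47.7 and 51.4 against 23.7, 31.4, 34 and 30.4 CPM. No knockout library reached the wild-type range, and the log2 fold change was -0.67 (SE 0.162, FDR 0.00571), a call lost without Bbs8-/- replicate 1 (FDR 0.0568). Gpc3, with the most counts of that list, was at -0.18 (FDR 0.152).

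The basement membrane list held type IV collagens, laminins, nidogens and fibronectin, all 17 of them tested. Of these, 12 were below 0, against 50.5% of all tested genes, with a median of -0.16. The ubiquitous pair Col4a1 and Col4a2 was lower: Col4a1 averaged 306.2 ± 23 CPM in wild-type and 258.6 ± 8.27 CPM in knockout libraries (log2 fold change -0.24, edgeR FDR 0.0366), and Col4a2 averaged 225.5 ± 11.1 and 186.5 ± 15.2 CPM (-0.27, FDR 0.0328). Col4a3, a chain of the specialised type IV network, was higher, with a mean of 130.1 ± 8.68 against 160.8 ± 7.7 CPM (0.30, FDR 0.0395), and its partner Col4a4 was at 0.11 (FDR 0.565). None of the 3 called collagens had overlapping libraries between genotypes, but each call lay near the threshold. It was lost in 8, 7 and 8 of 16 alternative fits for Col4a1, Col4a2 and Col4a3, with FDR up to 0.178, 0.21 and 0.166. The libraries whose omission ended a call were Bbs8+/+ replicates 1 and 3 and any Bbs8-/- replicate for Col4a1, Bbs8+/+ replicates 1 to 3 and Bbs8-/- replicates 1, 3 and 4 for Col4a2, and Bbs8+/+ replicates 1 and 2 and Bbs8-/- replicates 1, 2 and 4 for Col4a3. The 3 tested hyalectans, the substrates of Adamts1 and Adamts5, did not pass, with versican (Vcan) at 0.11 (FDR 0.827) and brevican (Bcan), with at most 5 counts in any library, at 0.93 (FDR 0.734), or 1.93 without Bbs8+/+ replicate 3 (FDR 0.438) and 0.56 after thinning (FDR 0.885).

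**Figure D5:**
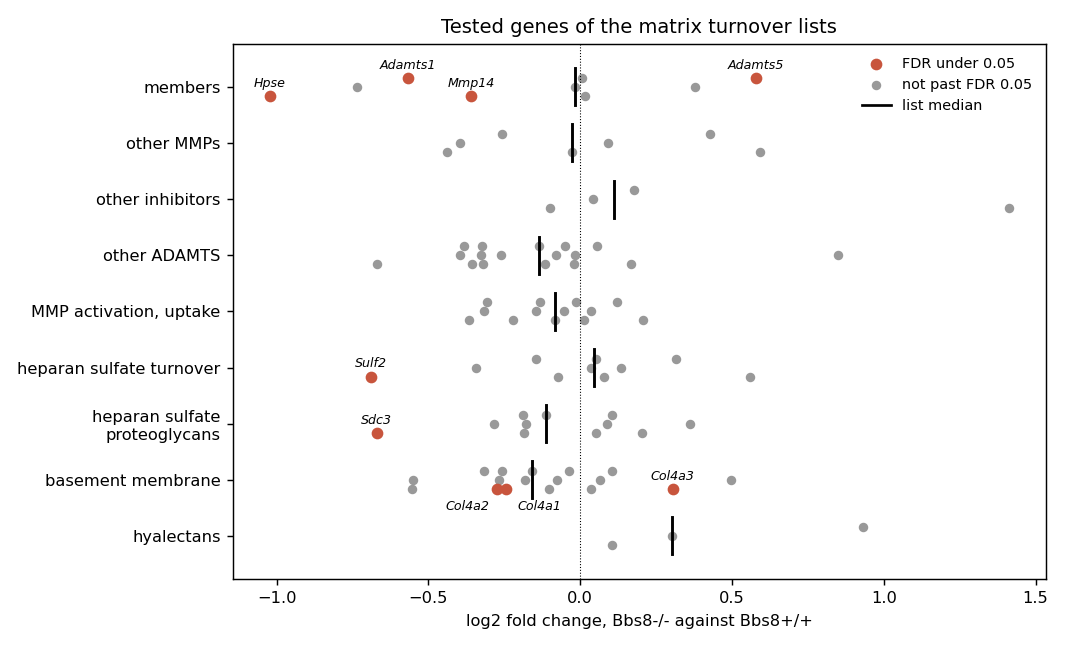
Log2 fold change in Bbs8-/- against Bbs8+/+ (horizontal axis) of every tested gene of the member list and the 8 other matrix lists (vertical axis), with called genes in red and the list median as a black line. The 4 called members are joined by Sulf2, Sdc3, Col4a1 and Col4a2 to the left of 0 and Col4a3 to the right, and the list medians lie between -0.16 and 0.30.

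Several marker lists differed between the genotypes in the libraries that gave the values above. Over all tested genes, 1.14% were called lower and 1.1% higher. The targeted gene, Ttc8 in the annotation, averaged 18.6 ± 2.96 and 4.97 ± 3.27 CPM (log2 fold change -1.95, edgeR FDR 2.75e-06). Knockout replicates 1 to 4 held 9.72, 3.66, 2.3 and 4.21 CPM of it, and the lowest wild-type library 14.7 CPM. All 10 RPE markers were tested and 2 passed, both lower (Pmel and Tyrp1), with a summed level of 19740.9 to 20457.8 CPM in Bbs8+/+ and 19977.8 to 20577.4 CPM in Bbs8-/-. The fibroblast and sclera markers were given with Adamts1. Of 8 pericyte and smooth muscle markers 2 were lower (1295.6 to 1338.1 against 1130.4 to 1215.5 CPM). Of 8 melanocyte markers 5 were lower (11572.3 to 11840.5 against 9622.5 to 9956.6 CPM). Most of the melanocyte sum was Dct, with a mean of 9557.0 CPM over all libraries. Sox10 (-0.05, FDR 0.878), Kit (-0.03, FDR 0.974) and Tyr (0.02, FDR 0.955) did not pass. Of 10 photoreceptor markers 2 were lower (501.5 to 548.7 against 405.5 to 463.9 CPM). Of 8 surface epithelium keratins and relatives all 3 that were tested were lower (15.7 to 22 against 0.468 to 1.38 CPM), and Krt14 was at 0 in every library. Higher in Bbs8-/- were 4 of 10 lens markers (48.8 to 63 against 278.8 to 305.9 CPM), 2 of 10 macrophage and microglia markers (477.7 to 528.6 against 574.6 to 618.8 CPM) and 2 of 9 mast cell markers (61.3 to 83.1 against 121.3 to 124.5 CPM), with the mast cell gene Mcpt1 at 0 throughout. The endothelial list had 1 of 10 higher, with overlapping sums (910.5 to 963.2 and 925.1 to 1016.9 CPM), as did skeletal muscle (1 of 10, 2054.5 to 2250.6 and 2233.0 to 2411.0 CPM), and none of the 3 tested of 8 neutrophil markers passed (3.02 to 9.79 and 6.8 to 10.3 CPM). The sums without overlap moved with the same genotype contrast as Mmp14, Adamts1, Adamts5 and Hpse, and their part in those results was not tested.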

How the data were processed

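The members and gene lists were chosen with earlier results of these data known. RPE eyecups were freed of cornea, lens, retina, optic nerve, muscle and fat, and 3′ mRNA libraries were read single-end. The authors trimmed reads with BBDuk, aligned them with STAR to mm10 and counted unique alignments per Ensembl gene with htseq-count. The deposited values are these raw counts, 1636725 to 2884983 per library (exact permutation p = 0.0857 between genotypes). Lines for reads outside genes, ambiguous or aligned more than once were left out. They made up 57.5% to 58.4% of each file's total in Bbs8+/+ and 58.6% to 59.3% in Bbs8-/-, without overlap. Floors cover counting error only, since no molecular identifiers were named, while the 95% intervals come from the edgeR fit and include the spread between libraries. Each animal was a biological replicate in the study's methods, and no 2 libraries of a genotype were identical (mean chi-square index 1.91 to 3.23, where Poisson noise gives 1). Every library held both Xist and Y-linked counts, so whether each came from a single animal cannot be told here, and n counts libraries.

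Symbols and positions (1-based) came from GENCODE M21, which matched 31011 of 31053 identifiers, and promoters from RefSeq. Genes that reached 1 CPM in 4 or more libraries entered the test in R 4.3.3 with the two-sided quasi-likelihood F test of edgeR 4.0.16 (TMM normalization, genotype as the only factor), adjusted by Benjamini-Hochberg over all 13813 tested genes. CPM values are TMM-scaled. The standard error is the log2 fold change divided by the square root of F. The procedure was tested on simulated counts. The study's filter on multi-mapped reads was not repeated.

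Named genes were all members, called genes of the 8 lists with the highest-CPM and lowest-p gene of each, overlapping genes, Ttc8 and the 3 nearest profiles of each called member. Some results that met these rules are not reported here. The 16 alternatives were RLE factors, total counts only, filterByExpr, no filter, DESeq2 1.42.0, a replicate block, leaving out Gm42418 and mitochondrial genes, thinning to the smallest total, and leaving out each of 8 libraries.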

Additional observations from a re-analysis of the deposited data

Results flagged for a closer look

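Mmp14 in Bbs8-/- replicate 2 stood at 184.6 CPM while the other 3 knockout libraries lay between 158.5 and 161.7 CPM, so that 1 library lay far from the rest. It was still below the lowest wild-type library, at 197.9 CPM. Bcan in Bbs8+/+ replicate 3 stood at 2.34 CPM, against 0.35 to 0.432 CPM in the other 3 wild-type libraries, on at most 5 counts per library. Among 52 groups of 4 libraries examined, 2 stood out in this way, where chance gives about 2.6.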

How the results depend on the processing

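Over 16 alternatives no called member changed direction. Of the members, 1 was higher as reported and 0 after thinning, with 0 to 1 when 1 library was left out, and 3 were lower as reported, with 1 to 3 when 1 library was left out (1 without Bbs8+/+ replicate 2). Leaving out 1 library gave log2 fold changes of -0.41 to -0.30 for Mmp14, -0.61 to -0.48 for Adamts1, 0.49 to 0.67 for Adamts5 and -1.08 to -0.89 for Hpse, and thinning gave 0.46 for Adamts5 and -0.93 for Hpse, neither under FDR 0.05. Fits without a library have fewer samples. Values near 0 changed sign: Mmp2 ran from -0.0262 to 0.0813 without 1 library, Timp2 from -0.0224 to 0.0535 and at -0.0019 with total counts only, Mmp16 from -0.1148 to 0.0615 and at 0.1019 after thinning, and Bsg from -0.0027 to 0.0324 and at -0.0111 after thinning.

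In the 8 further lists 1 gene was higher, and 0 with total counts only, with the replicate block or after thinning (0 to 1 without 1 library). There 4 were lower, 6 with DESeq2, 5 with total counts only or filterByExpr, 3 after thinning, 2 with the replicate block and 1 to 4 without 1 library (1 without Bbs8-/- replicate 1). The replicate numbers in the titles did not pair the libraries: the correlations of same-numbered libraries were 0.0019, -0.00225, 0.00427 and -0.0121, and none correlated best with its own number. With the block the 4 member calls held (FDR 0.00482 for Mmp14, 0.00718 for Adamts1, 0.0413 for Adamts5 and 0.0351 for Hpse), and all genes gave 134 higher and 129 lower calls against 152 and 157. The causes of these shifts were not tested. Mmp9, with at most 3 counts in any library, was too shallow to test.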
